A study of Oryzias latipes with 84 samples.

Results

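The globin genes gb (ENSORLG00000003046) and hbbe2 (ENSORLG00000026120) are described here as they were counted in single pituitaries of medaka (Oryzias latipes), a small freshwater fish. They are 2 of the 24364 entries of the count table, and were chosen by their Ensembl identifiers because the study used globin expression to recognize red blood cells. The table holds bulk RNA-seq libraries of 84 fish, 68 females and 16 males, with 1 pituitary and 1 library per fish, each named by its number in the study (medaka1 and so on). All fish were of the line d-rR lhb:GFP, in which GFP is driven by lhb, the gene of the β-subunit of luteinizing hormone, and the labels name no treatment. The females were from 32 to 375 days post-fertilization (dpf) and from 9.5 to 29 mm in body length, and the males from 38 to 134 dpf and from 12 to 28 mm. For medaka137, medaka138 and medaka139, labelled 134 dpf, the paper states a younger range of ages. The labelled ages are used here. For comparison, fish of similar labelled age were joined into 15 classes of sex and age, 11 of females and 4 of males.

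Haemoglobin, the oxygen carrier of the blood, is assembled from α-type and β-type globin chains, each of which holds a haem group. The genes lie in clusters of close paralogs, some of which are used in the embryo and larva and others later in life. Red blood cells of fish keep their nucleus, and the pituitary is perfused by a dense bed of capillaries, so that a dissected gland can hold blood cells along with its hormone-producing cells. The symbol hbbe2 is that of a β-type embryonic globin in zebrafish. The symbol gb does not give the chain, as it belongs to 4 genes in the RefSeq annotation, 1 with an α synonym, 1 with a β synonym and 2 with none. The RefSeq table pairs none of its genes with an Ensembl identifier, and no coordinates or sequences are given here for either gene.

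Total counts per library ranged from 2424546 to 9348785. Both globin genes were far above the level where counting limits the precision. The lowest count of gb was 988 and that of hbbe2 was 3043, both in medaka118, with exact 95% Poisson intervals of 927 to 1052 and 2936 to 3153. The highest counts were 166026 and 397342, in medaka125. These intervals cover counting error only. Levels are given as CPM, the count of a gene scaled to the same total in every library, which is not corrected for gene length, so levels of the 2 genes are not compared with each other. Reads shared by near-identical globin paralogs may have been split between them or lost.

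Both genes were detected in each of the 84 pituitaries, at levels that spanned 142-fold for gb and 126.9-fold for hbbe2. The level of gb ranged from 163 to 23105 CPM, with a median of 1912 CPM, and that of hbbe2 from 454 to 57607 CPM, with a median of 4661 CPM. The lowest fish was the same for both genes, medaka82, a female of 64 dpf. In the RNA of a whole gland, a lower number of red blood cells and less globin RNA per red blood cell cannot be told apart.

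The 3 highest fish were young and stood apart. In medaka110 (female, 32 dpf, 10 mm) gb was at 21673 CPM and hbbe2 at 57607 CPM, in medaka103 (female, 39 dpf, 11 mm) at 17370 and 43582 CPM, and in medaka125 (male, 38 dpf, 12.5 mm) at 23105 and 55296 CPM. In these fish the genes together took 7.93%, 6.10% and 7.84% of all counts, against a median of 0.666% over the 84 fish. The highest level in any of the other 81 fish was 6939 CPM of gb and 20184 CPM of hbbe2, in medaka32, a female of 45 dpf. The RNA integrity number (RIN) was 7.9, 7.7 and 9.3 in the 3 fish, against a median of 9.6 in the 73 fish with a RIN. These 3 fish all belong to the youngest classes, so the edgeR comparisons of those classes and the edgeR fits of length and age are also given without them or without the one that decides the value.

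Among the youngest females, of 32 to 35 dpf, gb was at 941, 1840, 4063 and 21673 CPM. It was at 1925, 2913, 3820 and 17370 CPM in the 4 females of 37 to 39 dpf. In both classes 1 fish was several-fold above the other 3, which lay within the range of the older females. The corresponding values of hbbe2 were 2523, 5698, 9284 and 57607 CPM at 32 to 35 dpf and 4078, 6822, 9771 and 43582 CPM at 37 to 39 dpf. The lowest, median and highest gb among the 8 females of 44 to 49 dpf were 1174, 2398 and 6939 CPM. The 5 females of 53 dpf had 252, 1383, 2864, 3207 and 3541 CPM of gb, so that here a single fish, medaka97, was low. The 4 females of 58 and 59 dpf formed pairs by age, with 3462 and 3853 CPM of gb at 58 dpf and 1089 and 1109 CPM at 59 dpf.

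In the 3 larger classes of females the lowest fish lay several-fold below the median. The lowest, median and highest gb were 163, 2250 and 3666 CPM among the 10 females of 64 to 74 dpf, and 248, 1990 and 5025 CPM among the 10 of 79 to 92 dpf. They were 218, 1900 and 2878 CPM among the 11 of 96 to 111 dpf. For hbbe2 these values were 454, 5201 and 9290 CPM, then 633, 4186 and 11560 CPM, then 578, 4663 and 7025 CPM. The 6 females of 131 to 179 dpf ranged from 227 to 4946 CPM of gb, with a median of 919 CPM, and from 700 to 13094 CPM of hbbe2, with a median of 2665 CPM. In this class the levels fell in the order of labelled age. They were 2659 and 4946 CPM of gb at 131 dpf, 910 and 928 CPM at 172 dpf, and 227 and 607 CPM at 179 dpf. For hbbe2 they were 7313 and 13094 CPM, then 2412 and 2918 CPM, then 700 and 1444 CPM. This order was noticed after the values were seen and was not tested. The share of all genes with such an order was not computed.

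The oldest females did not reach either extreme. The level of gb was 497, 2108 and 2272 CPM in the 3 females of 249 to 277 dpf and 1163, 1618 and 1884 CPM in the 3 of 375 dpf. That of hbbe2 was 1516, 5342 and 6117 CPM at 249 to 277 dpf and 2837, 4593 and 5069 CPM at 375 dpf.

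Among males, the 4 fish of 38 dpf spanned nearly the full range of the series, with 246, 2262, 2967 and 23105 CPM of gb and 621, 5655, 7283 and 55296 CPM of hbbe2. They had the same labelled age and were all 12 or 12.5 mm long. The males of 57 dpf had 606, 1127, 1995 and 3365 CPM for gb and 1615, 2707, 4634 and 7391 CPM of hbbe2. In the older males the levels lay closer together. The level of gb was 831, 836, 905 and 1775 CPM at 70 dpf and 726, 858, 973 and 1805 CPM at 134 dpf, and that of hbbe2 was 2244, 2266, 2292 and 4147 CPM and then 1607, 2010, 2149 and 4658 CPM. At both ages 1 of the 4 males stood above the other 3 in both genes.

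**Figure D1:**
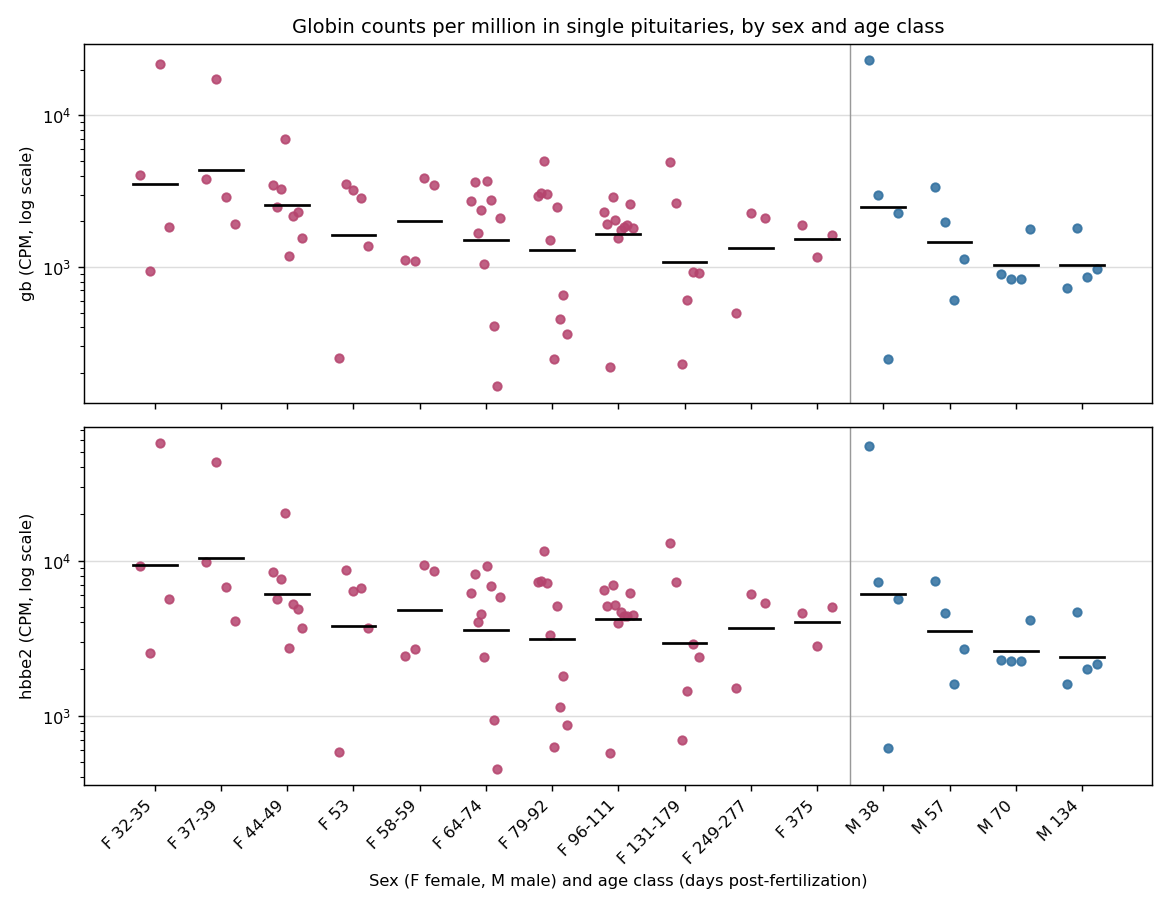
Levels of gb (top) and hbbe2 (bottom) in CPM on a log scale, 1 point per pituitary, by sex and age class in dpf, with females left and males right of the grey line; black bars are the geometric means of the classes. The 3 fish from 17370 to 23105 CPM of gb are of 32 to 39 dpf, and all other fish lie between 163 and 6939 CPM.

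Most of the variation in both genes was found between fish of the same class. On the log2(CPM + 1) scale, differences within classes made up 83.4% of the sum of squares of each gene. A gene without any difference between the classes would have a similar share, because 84 fish in 15 classes leave most of it within classes. The share is therefore given as a description only. The standard deviation (SD) within classes, pooled over the 15 classes, was 1.36 for gb and 1.34 for hbbe2, which corresponds to 2.57-fold and 2.54-fold. Of the 20655 genes with a mean of at least 1 CPM, 90 (0.436%) had a larger SD within classes than gb and 102 (0.494%) a larger one than hbbe2, and the median SD of these genes was 0.51. Counting error made up 0.0173% of the within-class variance of gb and 0.00700% of that of hbbe2.

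The geometric means of the classes spanned 4.29-fold for gb and 4.37-fold for hbbe2. They were highest in the females of 37 to 39 dpf, at 4392 CPM of gb and 10433 CPM of hbbe2, and lowest in the males of 134 dpf, at 1023 and 2385 CPM. The second highest class for both genes was the females of 32 to 35 dpf (3515 and 9364 CPM), and the males of 38 dpf and the females of 44 to 49 dpf came next, in an order that differed between the genes. At the low end, the males of 134 dpf were preceded by the males of 70 dpf (1028 and 2637 CPM) and the females of 131 to 179 dpf (1075 and 2967 CPM). No class differed from its neighbour in this order by more than 0.46 for gb or 0.61 for hbbe2 on the log2 scale. Gaps between sorted means are small by construction, and the pooled SD is that of single fish, so nothing is concluded from their size.

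Fish of 1 sex and 1 labelled age differed as well. There were 22 such ages with at least 2 fish. At these, the highest level of gb was from 1.02-fold to 94.1-fold the lowest, with a median of 2.58-fold, and it was more than 5-fold the lowest at 8 ages. For hbbe2 this range was from 1.09-fold to 89.1-fold, with a median of 2.48-fold, and again 8 ages were above 5-fold. The 5 females of 111 dpf lay close together although they were from 10.5 to 19 mm long, with 1546 to 2588 CPM for gb and 3989 to 6167 CPM of hbbe2. The 5 females of 66 dpf were from 10 to 20 mm long and had 1044 to 3622 CPM of gb, with the 2 highest levels in the 2 longest fish. In contrast, the 5 females of 87 dpf had 248 to 1495 CPM of gb, and all were below the 4 females of 79 dpf, at 2930 to 5025 CPM. These ages are named as examples chosen after their values were seen. The share of all genes that separate 79 from 87 dpf in this way was not computed. By the labels a tank held fish of the same age, and the tank of each fish is not named, so that age and tank cannot be told apart.

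The 2 genes kept a nearly constant proportion to each other across this range. The ratio of hbbe2 to gb was from 1.91 in medaka26 to 3.14 in medaka120, with a median of 2.44, and thus spanned 1.65-fold where gb spanned 142-fold. In the 3 highest fish it was 2.66 in medaka110, 2.51 in medaka103 and 2.39 in medaka125, and in medaka82, the lowest fish, it was 2.79. The median ratio was 2.44 in the 68 females and 2.43 in the 16 males. By class, the median ratio lay between 2.28 in the males of 134 dpf and 2.7 in the females of 131 to 179 dpf, and the ranges of these classes overlapped, with 2.21 to 2.58 in these males and 2.38 to 3.14 in these females.

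On the log2(CPM + 1) scale, gb and hbbe2 correlated with r = 0.994 and Spearman's rho = 0.981 in the 68 females, and with r = 0.998 and rho = 0.959 in the 16 males. Each had a permutation p of 1e-05, the smallest that 100000 permutations can give, and an adjusted p of 0.00015 over the 30 relations computed. Without the 2 fish farthest from the median of gb, r was 0.993 in the females and 0.991 in the males. Within classes, after subtraction of the class means, r was 0.995 in the females and 0.998 in the males. Both values of a fish come from the same library, and the genes may share reads.

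**Figure D2:**
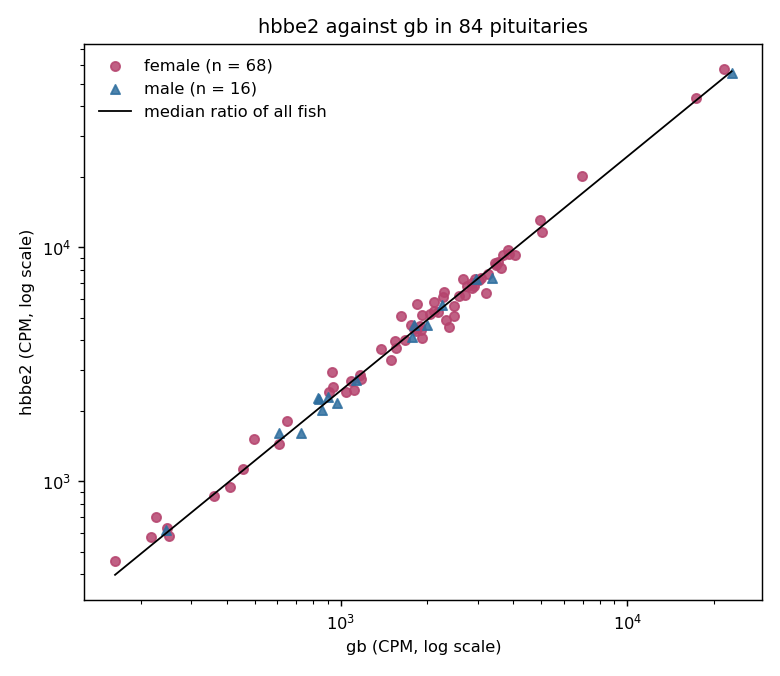
hbbe2 against gb in CPM, both on log scales, with 1 point per pituitary (circles, 68 females; triangles, 16 males) and a line at the median ratio of all fish, 2.44. The points follow the line from 163 to 23105 CPM of gb, and the ratio stays between 1.91 and 3.14.

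Females and males of matched ages did not differ detectably in either gene. Over the 4 pairs of classes (females of 37 to 39, 58 to 59, 64 to 74 and 131 to 179 dpf against males of 38, 57, 70 and 134 dpf), the mean log2 fold change of females over males was 0.17 for gb (standard error, SE, 0.41, 95% interval -0.66 to 0.99, adjusted p = 0.783 in edgeR). For hbbe2 it was 0.22 (SE 0.41, interval -0.60 to 1.03, adjusted p = 0.713). The intervals leave room for about a doubling in females and also for lower levels in females than in males. Without the 3 highest fish the values were 0.36 (adjusted p = 0.504) and 0.39 (adjusted p = 0.459), and without medaka103 alone both turned slightly negative (-0.091 and -0.052). Without medaka125 alone they were 0.63 (adjusted p = 0.218) and 0.67 (adjusted p = 0.185), and without medaka112, a female of 131 dpf, -0.053 and 0.0058. In the oldest pair the ages matched only loosely, with a median of 172 dpf in the females against 134 dpf in the males. Of all genes tested in this comparison, 35.5% had an adjusted p under 0.05, so that the globin genes were not among a large set of genes called between the sexes. After thinning all libraries to equal depth, a median of 22069 genes was detected in the 68 females and of 19991 in the 16 males.

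Taken pair by pair, the ranges of females and males overlapped in each of the 4 pairs of classes and in both genes. By single labelled age (at least 2 females), those of 58, 74 and 131 dpf were above all males of their pair in both genes. Their gb was 3462 and 3853, 2751 and 3666, and 2659 and 4946 CPM, against at most 3365, 1775 and 1805 CPM in these males. The females of 179 dpf (227 and 607 CPM of gb) were below all males of 134 dpf (from 726 CPM) in both genes. At the other ages the ranges overlapped. Each age named here has 2 females against 4 males, where a full separation can readily arise by chance. The share of all genes that separate in this way was not computed, and the 2 genes move together. These separations were not tested. Mean gb was 6507 ± 7283 CPM in the females of 37 to 39 dpf and 7145 ± 10702 CPM in the males of 38 dpf (SD, n = 4 each; adjusted p = 0.886 by exact permutation, two-sided). With the SD exceeding the mean in both, this pair says little. At 58 to 59 dpf the females had 2378 ± 1486 CPM and the males of 57 dpf 1773 ± 1206 CPM (SD, n = 4 each; adjusted p = 0.825 in the exact test). The 10 females of 64 to 74 dpf had 2055 ± 1227 CPM and the 4 males of 70 dpf 1087 ± 460 CPM (SD; adjusted p = 0.703 in the exact test), the largest ratio of means of the 4 pairs. The 6 females of 131 to 179 dpf had 1713 ± 1791 CPM and the 4 males of 134 dpf 1091 ± 487 CPM (SD; adjusted p = 0.825 in the exact test). The adjusted p values of hbbe2 were from 0.703 to 0.886 in the same exact tests, and adjustment was over the 8 tests.

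In males, both genes were lower at 134 dpf than at 38 dpf in edgeR, but this call rested on medaka125. The log2 fold change was -2.83 for gb (SE 0.94, interval -4.71 to -0.96, adjusted p = 0.0221) and -2.85 for hbbe2 (SE 0.93, interval -4.71 to -0.99, adjusted p = 0.0205), in a comparison in which 24.4% of all genes were called. Without medaka125 it was -0.88 (adjusted p = 0.507) and -0.93 (adjusted p = 0.474). The call was also lost for both genes without medaka140 or with only these 8 males in the fit, and for gb without medaka139. The male medaka127, also of 38 dpf, was below all 4 males of 134 dpf in both genes, so that the ranges overlapped. Over the 14 alternatives run, gb was called in 9 and hbbe2 in 10, with adjusted p from 0.00414 to 0.507 for gb and from 0.00457 to 0.474 for hbbe2.

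In females, the difference between 131 to 179 dpf and 37 to 39 dpf was of the same sign and did not pass the test. The log2 fold change was -1.99 for gb (SE 0.80, interval -3.58 to -0.40, adjusted p = 0.171 in edgeR) and -1.85 for hbbe2 (SE 0.79, interval -3.43 to -0.28, adjusted p = 0.203), and 2.99% of all genes were called. Without medaka103 the values were -1.04 (adjusted p = 0.466) and -0.86 (adjusted p = 0.550). Without medaka112 they were -2.86 (adjusted p = 0.0415) and -2.69 (adjusted p = 0.0567), so that gb then passed. The change with age did not differ detectably between the sexes. The female change minus the male change was 0.85 for gb (SE 1.2, adjusted p = 0.773 in edgeR) and 0.99 for hbbe2 (SE 1.19, adjusted p = 0.725), where 0.638% of all genes were called, and its sign for both genes turned when medaka125 was left out, to -1.13 and -0.94. Without medaka112 it was -0.028 for gb and 0.15 for hbbe2.

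The females of 249 to 375 dpf did not differ detectably from the females of 131 to 179 dpf. The log2 fold change of the older over the younger was -0.18 for gb (SE 0.72, interval -1.61 to 1.25, adjusted p = 1 in edgeR) and -0.21 for hbbe2 (SE 0.71, interval -1.63 to 1.21, adjusted p = 1). Without medaka112, which at 4946 CPM had the highest gb of the females of 131 to 179 dpf, the sign turned, to 0.69 and 0.63 (adjusted p = 1 for both). In this comparison 0.665% of all genes were called.

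**Figure D3:**
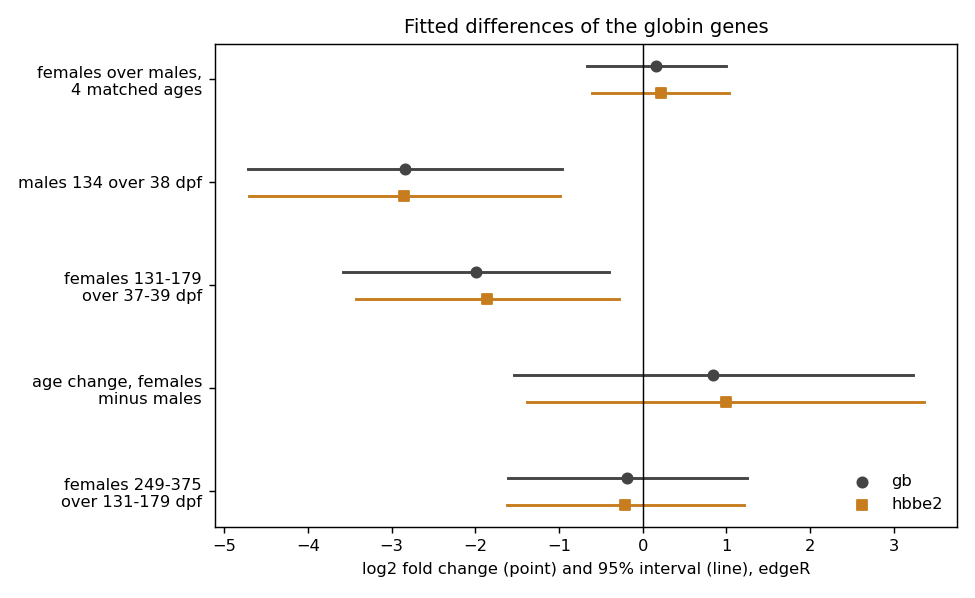
Log2 fold changes of gb (circles) and hbbe2 (squares) from edgeR in the 5 comparisons of classes, with 95% intervals as lines. The interval lies below 0 for males of 134 over 38 dpf (-4.71 to -0.96 for gb) and for females of 131 to 179 over 37 to 39 dpf (-3.58 to -0.40), of which only the comparison in males passed adjustment over all genes, and it spans 0 in the other 3.

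Neither body length nor age had a detectable relation to either gene in females once the other was accounted for. In a joint fit of both in the 68 females, the log2 change per mm of length was -0.0099 for gb (SE 0.062, interval -0.133 to 0.113, adjusted p = 0.961 in edgeR) and -0.0018 for hbbe2 (SE 0.064, interval -0.129 to 0.125, adjusted p = 0.993). In this fit 5.37% of genes were called for length and 1.8% for age. Per doubling of age the log2 change was -0.58 for gb (SE 0.35, interval -1.28 to 0.12, adjusted p = 0.459) and -0.59 for hbbe2 (SE 0.36, interval -1.31 to 0.12, adjusted p = 0.463). Without medaka103 and medaka110 in this fit, the changes per doubling of age were -0.32 (adjusted p = 0.607) and -0.31 (adjusted p = 0.624). When each was fitted alone, both genes were lower in longer and in older females. The log2 change per mm was then -0.11 for gb (adjusted p = 0.00330) and -0.10 for hbbe2 (adjusted p = 0.00489), where 33% of all genes were called. Per doubling of age it was -0.63 for gb (adjusted p = 0.00129) and -0.60 for hbbe2 (adjusted p = 0.00190), where 30.4% of all genes were called. Without medaka103 and medaka110, the change per mm was -0.065 for gb (adjusted p = 0.0555) and -0.057 for hbbe2 (adjusted p = 0.0891), and no longer passed, with 38.9% of all genes called. The change per doubling of age was then -0.40 for gb (adjusted p = 0.0348) and -0.35 for hbbe2 (adjusted p = 0.0562), with 40% of all genes called, so that only gb passed. Length and age rise together in these fish, and the joint fit separates them only in part.

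Across the 68 females, gb was lower at greater age by rank (rho = -0.360, permutation p = 0.00264, adjusted p = 0.0264), while Pearson's r of -0.305 with log2 age did not pass adjustment (p = 0.0113, adjusted p = 0.113). With TMM-scaled CPM, Pearson's r of gb passed both with log2 age (-0.341, permutation p = 0.00426, adjusted p = 0.0426) and with body length (-0.327, permutation p = 0.00606, adjusted p = 0.0454). On the CPM scale, to which all further values here belong, r of gb with log2 age was -0.325 without the 2 fish farthest from the median age. Within classes r was -0.286 (permutation p = 0.0419, adjusted p = 0.293), so that the relation did not hold there after adjustment, and without medaka103, medaka110 and medaka125 rho was -0.308 (adjusted p = 0.12). For hbbe2 with log2 age r was -0.272 (p = 0.0246, adjusted p = 0.147) and rho was -0.305 (p = 0.0119, adjusted p = 0.0712). With body length, gb had r = -0.289 (p = 0.0164, adjusted p = 0.123) and rho = -0.317 (p = 0.00833, adjusted p = 0.0625), and hbbe2 had r = -0.252 (p = 0.0379, adjusted p = 0.19) and rho = -0.244 (p = 0.0448, adjusted p = 0.224). In the 16 males no relation with age or length passed, with rho of gb at -0.364 for age (permutation p = 0.172, adjusted p = 0.428) and -0.408 for length (p = 0.116, adjusted p = 0.387).

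**Figure D4:**
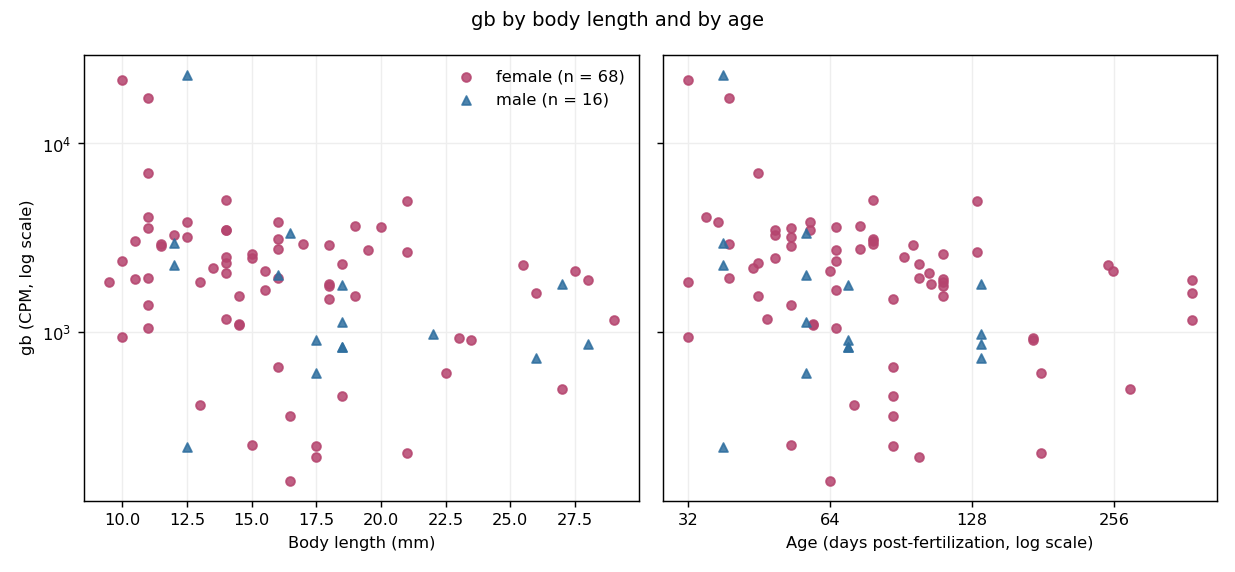
Levels of gb in CPM (log scale) against body length in mm (left) and age in dpf (right, log scale), 1 point per pituitary (circles, 68 females; triangles, 16 males). The 3 fish from 17370 to 23105 CPM are 10 to 12.5 mm long and 32 to 39 dpf old, and rho with age in females is -0.360.

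On the CPM scale, no relation of the globin level with a measure of the library passed the test, whereas with TMM-scaled CPM that with the number of genes detected did in females (rho = -0.336 for gb, adjusted p = 0.024). In the females, rho of gb was -0.097 with RIN (n = 57, adjusted p = 0.834), 0.029 with total counts (adjusted p = 0.87), -0.178 with the number of genes detected at equal depth (adjusted p = 0.428) and 0.050 with the share of counts in the 8 hormone-encoding genes (adjusted p = 0.835). The marker of antigen-presenting cells, CD74 (ENSORLG00000004913), the MHC class II invariant chain gene, is likewise a gene of cells that are not endocrine. Its rho with gb was -0.135 (adjusted p = 0.586) in the females and 0.126 (adjusted p = 0.835) in the 16 males. In contrast to the globin genes, CD74 rose with age in the joint fit, which held only females. The log2 change was 0.97 per doubling (SE 0.15, adjusted p = 2.09e-05 in edgeR). The edgeR comparisons of classes by age did not call CD74. Older over younger, its log2 fold change was 1.23 in females (adjusted p = 0.176) and -0.16 in males (adjusted p = 0.855). In the comparison of the oldest females it was 0.16. Between the sexes at matched ages CD74 was called, with a log2 fold change of -0.86 in females over males (adjusted p = 0.00495 in edgeR). Of all genes, 35.5% were called in that comparison. The male medaka135, of 70 dpf, had 6436 CPM of CD74, against a median of 418 CPM in the 16 males, and the value without it is not given.

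A small group of genes followed the 2 globin genes from fish to fish. Likeness was measured as Pearson's r with the mean of log2(CPM + 1) of gb and hbbe2, as deviations from class means, over the 84 fish and 20653 other genes. Of these, 13 genes had r above 0.9 and 2 had r below -0.5, and the median r was -0.0060. All values of a fish share a library and its depth, and these correlations are given as a description. The 5 nearest genes had r from 0.968 to 0.986 and carry no name in the text and tables used here. The nearest was ENSORLG00000027445, with r = 0.986. It was at 206 to 31219 CPM, with a median of 2131 CPM, and had a median of 118.7 counts per 100 counts of gb (from 70.2 to 227). The next was ENSORLG00000027969, with r = 0.978, from 52.9 to 9277 CPM and a median of 30.2 counts per 100 of gb (from 17.3 to 55.6). Relative to gb, both thus varied over a wider range than the 1.65-fold of hbbe2. Without medaka103, medaka110 and medaka125, r was 0.982 for ENSORLG00000027445 and 0.973 for ENSORLG00000027969.

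Because these genes were chosen for their likeness over the same libraries, their values in the comparisons are a description. Between the sexes at matched ages, the log2 fold change of females over males was 0.43 for ENSORLG00000027445 (adjusted p = 0.442 in edgeR) and 0.12 for ENSORLG00000027969 (adjusted p = 0.848). In males of 134 over 38 dpf it was -3.08 (adjusted p = 0.0148) for ENSORLG00000027445 and -3.62 (adjusted p = 0.00672) for ENSORLG00000027969, in the comparison whose call for gb was lost without medaka125. Of the other 3 of the 5 nearest genes, 1 passed in this comparison (adjusted p = 0.0223 in edgeR) and 2 did not (adjusted p = 0.0655 and 0.0961). Of all genes, 24.4% were called in it, and the values of these 5 genes without medaka125 are not given. In females of 131 to 179 over 37 to 39 dpf the log2 fold change was -1.83 (adjusted p = 0.221) for ENSORLG00000027445 and -2.57 (adjusted p = 0.0707) for ENSORLG00000027969.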

How the data were processed

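Pituitaries were dissected from 84 fish, 1 per library. The authors made cDNA with the Smart-SEQ HT kit and Nextera XT libraries, and mapped reads to the Ensembl assembly of the Hd-rR strain, with revised gene models and a GFP entry added. STAR 2.7.6a, HTSeq 0.11.2 and SAMtools 1.10 are listed in the submitters' processing notes. The deposited values are whole-number counts per gene, not normalized, pooled or filtered. Whether strand was used is not given in the sources used here, and the setting for reads over several genes is not given for these libraries in particular, which leaves overlapping or antisense genes uncertain. Total counts were 2424546 to 9348785.

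CPM were computed per library. Age classes were formed from the labelled ages. Genes were tested in R 4.3.3 by the robust quasi-likelihood test of edgeR 4.0.16, after filterByExpr and with TMM factors, in 1 fit of all 84 libraries by class, and in a joint fit of body length and log2 age in the 68 females. Adjusted p values are by Benjamini-Hochberg over all genes tested. Standard errors were derived from the F statistic. The alternatives were DESeq2 1.42.0, its size factors in edgeR, no filter on low counts, no hormone genes, other samples, covariates and scales, and each fish of a small class left out in turn. Leaving out medaka103, medaka110 and medaka125, and each female of 64 to 74 and 131 to 179 dpf in turn, was chosen after seeing the data. Single values were tested by exact permutation and correlations with 100000 permutations (Python 3.11.15, numpy 2.4.6, pandas 2.3.3, scipy 1.17.1, matplotlib 3.10.9). The edgeR scripts were tested on simulated counts.

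The genes named are gb, hbbe2, 2 of the 5 genes nearest to them by correlation within classes, and CD74 as a marker of other cells. Lists of erythroid, haem and other globin genes written by symbol could not be matched to Ensembl identifiers and were not used. The members and lists were chosen with earlier results of these data known. Single-cell data were not analysed here.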

Additional observations from a re-analysis of the deposited data

Results flagged for a closer look

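In 12 classes of 4 to 10 fish, single fish stood apart from the rest of their class in gb, hbbe2 or their ratio in 11 of 36 cases by Dixon's test on the CPM scale, in which chance gives about 1 in 20 for normal values. CPM are skewed, and on the log2 scale 3 of the 11 passed, the ratio of medaka32 and both genes of medaka136. The cases come from 5 fish, each the highest of its class, and the 2 genes of a fish move together. Classes of 3 and of 11 fish were not tested. Only the 11 cases were tried on the log2 scale, so that low fish can have been missed. In the untested females of 96 to 111 dpf, medaka3 was lowest, at 218 CPM of gb, against 1546 to 2878 CPM in the rest. Its hbbe2 was 578 CPM, against 3989 to 7025 CPM. In the females of 32 to 35 dpf, medaka110 had 21673 CPM of gb, against 941 to 4063 CPM in the other 3, and 57607 CPM of hbbe2, against 2523 to 9284 CPM. Among those of 37 to 39 dpf, medaka103 had 17370 CPM of gb, against 1925 to 3820 CPM, and 43582 CPM of hbbe2, against 4078 to 9771 CPM. In the males of 38 dpf, medaka125 had 23105 CPM of gb, against 246 to 2967 CPM, and 55296 CPM of hbbe2, against 621 to 7283 CPM.

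In the females of 44 to 49 dpf, medaka32 had 6939 CPM of gb, against 1174 to 3489 CPM in the other 7, and 20184 CPM of hbbe2, against 2741 to 8432 CPM. Its ratio of hbbe2 to gb was 2.91, against 2.11 to 2.43, and no other fish of the classes tested stood apart in the ratio. In the females of 375 dpf, a class too small for this test, medaka117 had a ratio of 3.13, against 2.44 in both other fish. In the males of 70 dpf, medaka136 had 1775 CPM of gb, against 831 to 905 CPM in the other 3, and 4147 CPM of hbbe2, against 2244 to 2292 CPM, a step of less than 2-fold in a class whose other fish were close together.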

How the results depend on the processing

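No paired analysis was possible because the fish carry no numbers shared between classes. For males of 134 over 38 dpf, the log2 fold change of gb ranged from -3.28 to -0.88 and that of hbbe2 from -3.38 to -0.93 with each of the 8 males left out, and the calls were lost with only the 2 classes in the fit (-2.79 and -2.80) and without medaka103, medaka110 and medaka125 (-0.93 and -0.99). The call was also lost without medaka140 (-2.72 and -2.71, adjusted p = 0.0619 and 0.0603 in edgeR), and that of gb without medaka139 (-2.81, adjusted p = 0.0505). With each fish of the classes compared left out in turn, the difference between the sexes at matched ages ranged from -0.091 to 0.63 for gb and from -0.052 to 0.67 for hbbe2, highest without medaka125, and its sign turned without medaka103 and, for gb, without medaka112 (-0.053). That of the oldest females ranged from -0.41 to 0.69 and from -0.44 to 0.63, and turned without medaka122 (0.050 and 0.013) and medaka112 (0.69 and 0.63). Female age ranged from -2.86 to -1.04 for gb, which passed without medaka112, and from -2.69 to -0.86 for hbbe2. The difference in the age change between the sexes ranged from -1.13 to 1.82 for gb and from -0.94 to 2.01 for hbbe2, with the sign turned without medaka125 and, for gb, without medaka112 (-0.028), and was -0.13 for gb without medaka103, medaka110 and medaka125. Log2 changes per mm of length were 0.044 and 0.056 with RIN in the fit, which kept only the 57 females with a RIN. They were -0.11 and -0.10 for length alone. Log2 changes per doubling of age were -0.63 and -0.60 for age alone and, without medaka103 and medaka110, -0.40 for gb. At 37 to 39 dpf, females were above the males of 38 dpf by 0.82 and 0.77 on the log2 scale, unlike on the CPM scale. The causes were not tested.

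The number of genes called was 1280 for male age, 376 for female age, 0 for the age change by sex and 1 for the oldest females with only the classes compared in the fit. It was 1333 for female age and 0 for the age change by sex without medaka103, medaka110 and medaka125, and 492 for the age change by sex in DESeq2. With each fish of the classes compared left out it ranged from 2971 to 5764 for male age, from 253 (without medaka119) to 920 for female age, from 2 to 519 for the age change by sex and from 1 (without medaka119) to 206 for the oldest females. It was 6982 for length alone (8229 without medaka103 and medaka110) and 384 with RIN, and 6440 for age alone (8461) and 39 with RIN. The fit with RIN held only the 57 females with a RIN, so that the set of fish changed as well.

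Of the rank correlations in females, gb with length passed with TMM-scaled CPM (rho -0.351) and without the hormone genes (-0.321), as did hbbe2 with age (-0.336 and -0.327). With TMM-scaled CPM, the number of genes detected passed for gb (-0.336) and hbbe2 (-0.334). The relation of gb with age was lost without medaka103, medaka110 and medaka125 (-0.308). Another 10 weak relations changed sign without passing. These were hbbe2 with CD74 in females with TMM-scaled CPM (0.0098), the hormone share in males without the hormone genes (0.079 for gb, 0.05 for hbbe2), and, without medaka103, medaka110 and medaka125, hbbe2 with RIN in females (0.059) and, in males, RIN (0.013 for gb, 0.136 for hbbe2), the hormone share (0.039 and 0.086) and CD74 (-0.021 and -0.032).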
